A study of Mus musculus with 2 samples.

Results

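The forkhead genes encode transcription factors that share a winged-helix DNA-binding domain, the forkhead box, and carry the symbol Fox with a subfamily letter and a number. They were taken as every probe set that the platform annotation assigned to exactly 1 gene with such a symbol, with Foxj1 left out. This gave 81 probe sets for 36 genes, of 18193 genes on the array that were named by a probe set of their own. A further 2 probe sets that name a forkhead gene among several genes were not used.

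The material was whole lung of TAZ-deficient mouse embryos and of their wild type littermates at E15.5 (embryonic day), hybridised to Affymetrix one-colour arrays. The Wwtr1 gene encodes TAZ, a coactivator in the Hippo pathway that reaches DNA through the TEAD factors. In each of the 2 groups 4 total RNA samples were mixed and put on 1 array, so that the TAZ-deficient group was 1 pool and the wild type group was 1 pool. The sources used here do not give how the TAZ deficiency was made, nor the strain or sex of the embryos. With 1 array per group no difference below could be set against a spread between animals or pools, and none was tested.

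Values are the deposited signals, on a linear scale. Signals under 15.2 units, the median of all non-control signals, were raised to that floor, and log2 ratios were then formed as TAZ-deficient over wild type. A gene counted as measured when the probe set with its highest mean log2 signal was over the floor in at least 1 of the pools, as for 12032 genes. A fold with 1 signal not over the floor is a lower bound, written "at least". Wwtr1 read 11.3 in TAZ-deficient lung, against 791.2 in wild type lung (at least 52.1-fold lower), and its other probe sets followed the labels in the same way. Of the lung markers listed for the check of tissue, 9 of 9 for epithelium and 9 of 9 for mesenchyme were measured, while 1 of 6 for thymus and T cells, 0 of 3 for thyroid and 1 of 6 for liver and gut endoderm were. Markers of other neighbouring tissues were measured in part, with 3 of 5 for cartilage, 2 of 4 for nervous tissue and 3 of 5 for heart. Of the 2 nervous tissue genes, Stmn2 had log2 ratios of opposite sign at its probe sets, -0.50 and 0.37. Sox10 had -0.38, a bound with the TAZ-deficient signal below the floor. The 3 heart genes, Myl7 (-0.86), Myh7 (-0.69) and Tnnt2 (-0.61), were all over 1.5-fold lower in TAZ-deficient lung, where 1.47% of all measured genes were. Myh7 (15.4 in TAZ-deficient and 24.9 in wild type lung) and Tnnt2 (20.1 and 30.6) were close to the floor. The second Tnnt2 probe set above the floor gave -0.48.

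Forkhead factors act in every compartment of the developing lung. In the epithelium Foxa1 and Foxa2 are pioneer factors that open chromatin for lung genes together with Nkx2-1, and Foxp1, Foxp2 and Foxp4 are repressors that restrain differentiation programmes. In the mesenchyme and the capillary endothelium Foxf1 acts downstream of hedgehog signalling. Foxm1 drives the genes of mitosis in dividing cells, and the FOXO factors are held in the cytoplasm when Akt or Sgk kinases phosphorylate them.

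Of the 36 forkhead genes, 24 were measured and 12 were not. None of the 24 was 1.5-fold different between TAZ-deficient and wild type lung, where 2.75% of all measured genes were. With 24 genes and that background, a count of 0 does not set the family apart. The log2 ratios ran from -0.51 (Foxs1) to 0.45 (Foxn4). Their median was 0.03, against -0.01 over all measured genes, with quartiles of -0.10 and 0.20 for the forkhead genes and -0.13 and 0.10 for all measured genes. The ratio was above 0 for 14 forkhead genes and below 0 for 10, so that 58.3% were above 0, against 46.8% of all measured genes. At the lower threshold of 1.2-fold, chosen after the data were seen, 4 forkhead genes were higher (Foxn4, Foxa2, Foxl2 and Foxo3) and 2 were lower (Foxs1 and Foxa3). These 6 are 25% of the measured forkhead genes, against 18.6% of all measured genes (8.03% higher and 10.6% lower).

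**Figure D1:**
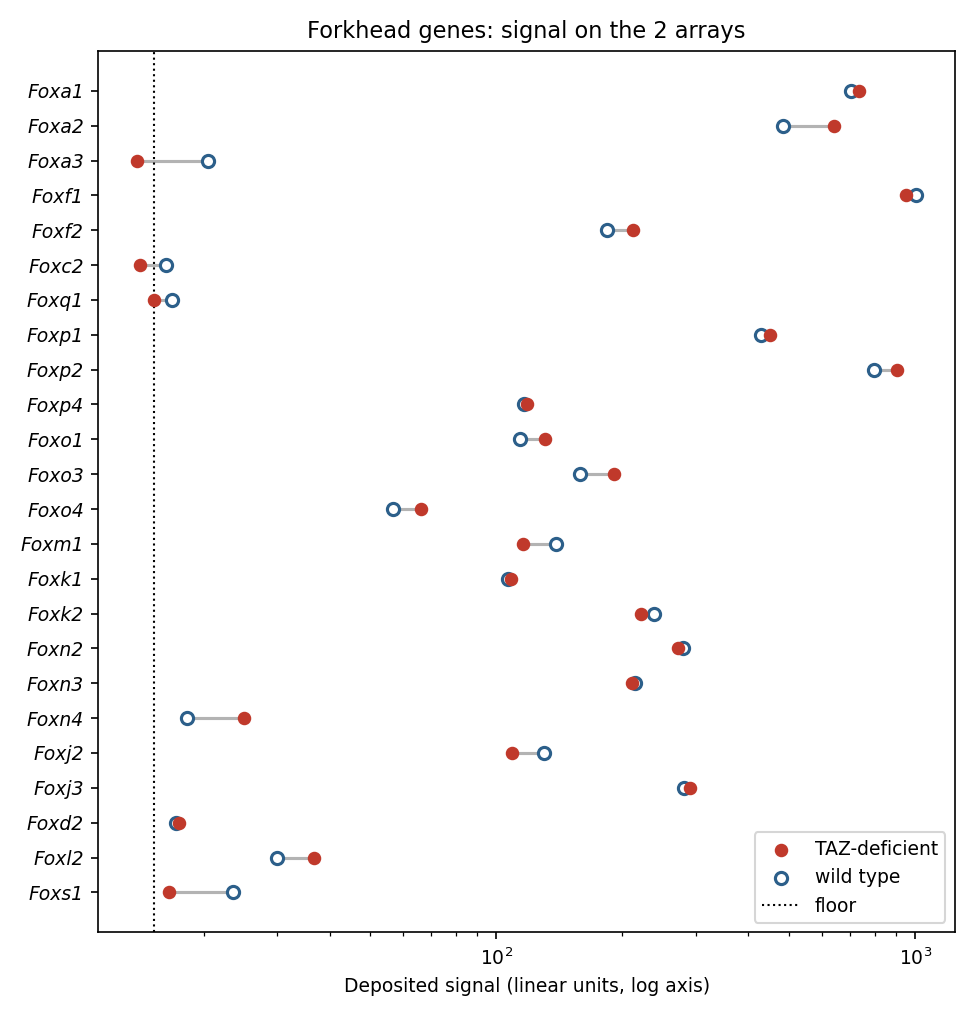
Deposited signal (log axis) of the 24 measured forkhead genes on the TAZ-deficient array (filled red) and the wild type array (open blue), 1 pool each, for the probe set with the highest mean signal. The dotted line is the floor of 15.2, and most pairs of points lie close together, with Foxa2 at 641.0 in TAZ-deficient and 483.0 in wild type lung among the widest gaps of genes well above the floor.

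The noise of a ratio depended on the signal. Its only available error was how far probe sets of the same gene disagreed, which leaves out variation between embryos, pools and arrays. For 5637 genes the brightest probe set was set against the next one over the floor, and the SD of the difference in log2 ratio, per probe set (scaled by 1 over the square root of 2), was 0.20. This SD was 0.13 where both probe sets were above 106.3 signal units, the 75th percentile of all signals, and 0.24 for the others. The 11 forkhead genes with more than 1 probe set over the floor gave 0.13. In 8 of the 11 the brightest and second brightest probe sets had the same sign, a share of 72.7%, against 58.0% over all such genes. With every probe set above the floor counted, 5 of the 11 had a single sign throughout. Both signals exceeded 106.3 for 16 forkhead genes. Of these, 10 had a ratio above 0, against a share of 49.2% over the 6732 genes with both signals that high. Only Foxa2 and Foxo3 among these 16 were 1.2-fold different, and none was 1.5-fold different, where 7.1% and 0.327% of the 6732 genes were.

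**Figure D2:**
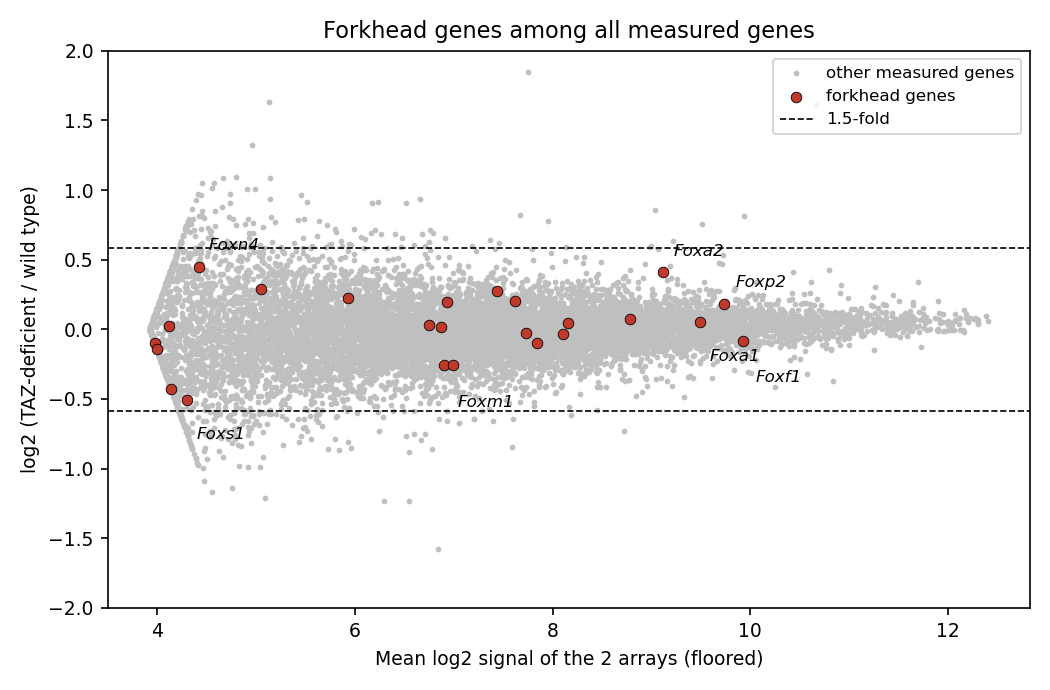
Log2 ratio (TAZ-deficient / wild type) against the mean log2 signal of the 2 arrays for the measured genes (grey) and the 24 forkhead genes (red), with dashed lines at 1.5-fold. All forkhead genes lie between the dashed lines, and 4 genes of the 12032 fall outside the vertical axis.

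The FOXA genes of the epithelium differed among themselves. Foxa2 read 641.0 in TAZ-deficient lung, against 483.0 in wild type lung, which is 1.33-fold higher (log2 ratio 0.41). Foxa1, its close relative with overlapping function in branching and epithelial differentiation, read 732.4 in TAZ-deficient lung, against 704.6 in wild type lung (1.04-fold). The Foxa2 ratio was larger in size than the disagreement of 0.13 between bright probe sets of one gene, and the Foxa1 ratio (0.06) was smaller. Each of these genes has 1 probe set, so that neither ratio could be set against another of its own gene. Foxa3, best known from liver, read 13.9 in TAZ-deficient lung, against 20.5 in wild type lung (at least 1.35-fold lower), so that it was below the floor on the TAZ-deficient array. In whole lung, more RNA per cell and more cells of a type cannot be told apart. Beside Foxa2, the 9 epithelial markers had a summed signal of 9875.7 in TAZ-deficient and 9607.2 in wild type lung, with none at 0 and log2 ratios from -0.16 to 0.23. Their part in the Foxa2 ratio was not tested.

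Of 16 genes listed as partners and targets of FOXA factors in lung epithelium, 14 were measured and none was 1.5-fold different (2.75% of all measured genes). Their median log2 ratio was 0.01, with 7 ratios above 0 and 7 below. Surfactant protein C (Sftpc), a product of distal epithelium, read 4121.5 in TAZ-deficient and 4142.5 in wild type lung. The airway secretoglobin Scgb3a2 read 1057.4 in TAZ-deficient and 1408.5 in wild type lung (1.33-fold lower). Sox9, a distal tip factor, read 155.7 in TAZ-deficient and 132.2 in wild type lung, and Nkx2-1, the lung lineage factor, 60.6 in TAZ-deficient and 61.1 in wild type lung. At 1.2-fold, 0 genes of this list were higher and 2 were lower (Scgb3a2 and Scgb1a1), against 8.03% and 10.6% of all measured genes. Scgb1a1, another secretoglobin, read 10.4 in TAZ-deficient and 18.5 in wild type lung (at least 1.22-fold lower). Sox9, Nkx2-1 and Scgb1a1 were chosen as examples after their values were seen.

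The starts of the measured forkhead genes were searched for the letters GGAATG (a TEAD motif), GTAAACA (a forkhead motif) and GACCACCCA (a GLI motif), on both strands, in windows from 250 bases before to 50 bases after the RefSeq start. Windows were at hand for 15 of the 24 measured genes, 19 windows in all. Foxc2, Foxf1, Foxk1, Foxm1, Foxn2, Foxo4, Foxp2, Foxq1 and Foxs1 had no window, so that their starts were not searched for any of the motifs. The TEAD letters were in 2 of the 19 windows (Foxo3 and Foxp1) and in 14.7% of 32851 windows of all genes. The forkhead letters were in 1 window (Foxa1), against 3.65% of all windows, and the GLI letters in 0, against 0.253%. These matches are descriptions of sequence and not binding sites. The 3 windows of Foxa2 and those of Foxf2, Foxo1 and Foxp4 held none of these letters. The Foxa1 window is shown for the forkhead letters that it carries 141 bases before the start of a forkhead gene, in capitals (GRCm38.p6, chr12:57546062-57546361, minus strand, written 5′ to 3′ along the gene).
Foxa1: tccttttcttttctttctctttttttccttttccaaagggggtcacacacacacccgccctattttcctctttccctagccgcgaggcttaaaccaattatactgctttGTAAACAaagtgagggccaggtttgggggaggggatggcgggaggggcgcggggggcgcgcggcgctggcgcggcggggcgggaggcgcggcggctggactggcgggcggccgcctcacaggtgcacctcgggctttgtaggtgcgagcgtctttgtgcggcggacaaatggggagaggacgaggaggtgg

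The FOXF genes of the mesenchyme had ratios of opposite sign. Foxf1 read 948.3 in TAZ-deficient lung, against 1003.6 in wild type lung (1.06-fold lower), and its other probe set read 203.7 in TAZ-deficient and 248.7 in wild type lung (1.22-fold lower). Foxf2, its paralogue in gut and lung mesenchyme, read 211.8 in TAZ-deficient lung, against 183.6 in wild type lung (1.15-fold higher). The second Foxf2 probe set did not reach the floor on either array (5.0 in TAZ-deficient and 6.1 in wild type lung). The log2 ratios of Foxf1 were -0.08 and -0.29 and that of Foxf2 was 0.21. The sign of each gene held under quantile normalization, loess and median centring. The 9 mesenchymal markers had a summed signal of 12228.8 in TAZ-deficient and 11795.7 in wild type lung, with none at 0 and log2 ratios from -0.33 to 0.12. The 6 endothelial markers had a summed signal of 2102.6 in TAZ-deficient and 2230.7 in wild type lung, with none at 0 and log2 ratios from -0.20 to 0.23. The part of either marker list in the FOXF ratios was not tested.

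Both FOXF genes lie in forkhead clusters. On chromosome 8 Foxf1 is followed by Foxc2 and Foxl1, and on chromosome 13 Foxq1, Foxf2 and Foxc1 are neighbours among protein-coding genes. Foxc2, a regulator of vessels and lymphatic valves, read 14.1 in TAZ-deficient lung, against 16.3 in wild type lung (at least 1.07-fold lower). Foxq1, which is mutated in satin mice with altered hair, read 15.2 in TAZ-deficient lung, against 16.8 in wild type lung (at least 1.11-fold lower). Foxc1, the relative of Foxc2, stayed at or below the floor, with 15.2 in TAZ-deficient and 13.3 in wild type lung at its brighter probe set. Foxl1, a factor of gut mesenchyme, read 3.6 in TAZ-deficient and 5.2 in wild type lung. Only Foxf1 and Foxf2 of these clustered genes were above the floor on both arrays. The long noncoding RNA gene Fendrr, next to Foxf1 on its other side, read 75.2 in TAZ-deficient and 71.4 in wild type lung. Mthfsd, the gene between Foxf1 and Foxc2, read 70.9 in TAZ-deficient and 55.6 in wild type lung (1.28-fold higher).

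The hedgehog pathway, which feeds the FOXF genes, had 13 measured members of 15 listed, with a median log2 ratio of 0.02. Gli1, a transcription factor and target of the pathway with 1 probe set, was the member that was 1.5-fold different, with 40.0 in TAZ-deficient and 64.7 in wild type lung (1.62-fold lower), where 1.47% of all measured genes were that much lower. Other direct targets of the pathway differed less, with Ptch1, the receptor, at 1156.0 in TAZ-deficient and 1124.4 in wild type lung and Hhip, a ligand-binding inhibitor, at 218.0 in TAZ-deficient and 250.7 in wild type lung. Disp1, which releases the ligand, came next in size, with 54.3 in TAZ-deficient and 36.3 in wild type lung (log2 ratio 0.58, just short of 1.5-fold). Its second probe set was below the floor. At 1.2-fold, 2 members of the hedgehog list were higher (Disp1 and Cdon) and 2 were lower (Gli1 and Dhh). Over all measured genes 8.03% were that much higher and 10.6% that much lower. Cdon had a log2 ratio of 0.32 and Dhh one of -0.40, a bound with the TAZ-deficient signal below the floor. Among 20 genes listed as FOXF1 targets in mesenchyme and endothelium, 18 were measured and the median was -0.02. None was 1.5-fold different at its brightest probe set, where 2.75% of all measured genes were. The mesenchymal factor Tbx4 read 993.5 in TAZ-deficient and 970.0 in wild type lung, and myosin light chain kinase (Mylk) read 868.1 in TAZ-deficient and 904.1 in wild type lung. Tbx4 had a negative log2 ratio of -0.10 with the median over its probe sets. Its relative Tbx5 read 93.1 in TAZ-deficient and 116.8 in wild type lung, and 58.0 in TAZ-deficient against 97.0 in wild type lung at its second probe set (log2 ratios -0.33 and -0.74). At 1.2-fold, 1 gene of this list was lower (Tbx5) and 1 was higher (Myocd). Myocd read 59.0 in TAZ-deficient and 45.7 in wild type lung (log2 ratio 0.37). Its second probe set read 12.2 in TAZ-deficient and 19.3 in wild type lung (-0.34, a bound). Disp1, Cdon, Dhh, Tbx5 and Myocd were chosen after their values were seen, as were Ptch1 and Hhip.

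The FOXP genes had many probe sets, which did not all point the same way. Foxp2, which with Foxp1 is needed for lung growth in the mouse, read 904.3 in TAZ-deficient lung, against 796.7 in wild type lung (1.14-fold higher). Its next probe sets read 488.6 against 378.4 (1.29-fold higher), 373.2 against 334.2 (1.12-fold higher) and 31.3 against 26.8 (1.17-fold higher) in TAZ-deficient against wild type lung. The remaining one above the floor read 129.0 in TAZ-deficient and 134.6 in wild type lung. In all, 4 of 5 Foxp2 probe sets above the floor had ratios above 0. Foxp1 read 450.7 in TAZ-deficient lung, against 428.2 in wild type lung (1.05-fold), and 3 of its 7 probe sets above the floor had ratios above 0 and 4 below, from -0.10 to 0.17. Its sign turned with the median over probe sets (-0.03). Foxp4, the third FOXP gene of lung epithelium, read 118.2 in TAZ-deficient lung, against 116.6 in wild type lung, with ratios from 0.02 to 0.22 at its 3 probe sets above the floor. Foxp3, the factor of regulatory T cells, was not measured (4.7 in TAZ-deficient and 5.8 in wild type lung).

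Of 12 genes listed as partners and targets of FOXP factors, 10 were measured and the median log2 ratio was 0.05. None was 1.2-fold different, where 18.6% of all measured genes were, and 7.1% of those with both signals above 106.3. The corepressor Ctbp1 read 1522.3 in TAZ-deficient and 1560.3 in wild type lung, and the histone deacetylase Hdac1 read 1235.2 in TAZ-deficient and 1098.0 in wild type lung. The Foxp1 window with the TEAD letters is 1 of 3 for this gene and is shown with them in capitals, on the strand opposite to the gene, 134 bases before the start (GRCm38.p6, chr6:99520944-99521243, minus strand, written 5′ to 3′ along the gene).
Foxp1: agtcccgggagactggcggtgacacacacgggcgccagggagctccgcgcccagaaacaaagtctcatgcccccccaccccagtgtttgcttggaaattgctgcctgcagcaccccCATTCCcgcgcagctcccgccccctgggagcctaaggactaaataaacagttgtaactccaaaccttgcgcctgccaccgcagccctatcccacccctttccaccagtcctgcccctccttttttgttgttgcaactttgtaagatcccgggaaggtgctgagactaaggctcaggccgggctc

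**Figure D3:**
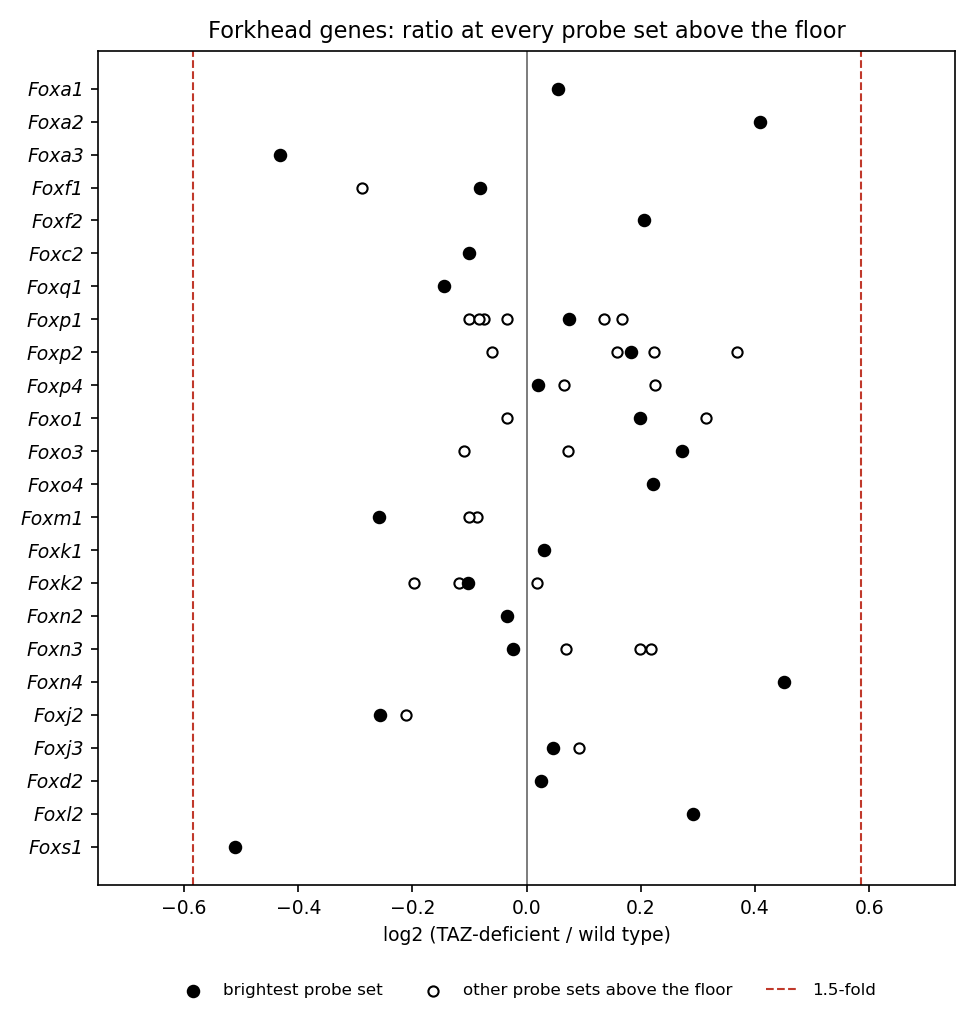
Log2 ratio (TAZ-deficient / wild type) at the 51 forkhead probe sets above the floor, 1 row per gene, with the brightest probe set filled and the others open. No point passes the dashed lines at 1.5-fold, and Foxp1, Foxp2, Foxo1, Foxo3, Foxk2 and Foxn3 have points on both sides of 0.

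All 3 measured FOXO genes had ratios above 0 at their brightest probe sets, from 0.20 to 0.27 on the log2 scale. Foxo3, a target of Akt that acts in stress resistance and cell cycle arrest, read 190.9 in TAZ-deficient lung, against 158.0 in wild type lung (1.21-fold higher). Its other probe sets above the floor read 176.0 against 167.3 (1.05-fold higher) and 9.0 against 16.4 (at least 1.08-fold lower) in TAZ-deficient against wild type lung. Foxo1, needed for early vessel formation in the mouse, read 130.9 in TAZ-deficient lung, against 114.0 in wild type lung (1.15-fold higher). Its next probe sets read 107.9 against 86.8 (1.24-fold higher) and 118.0 against 120.9 (1.02-fold lower) in TAZ-deficient against wild type lung, the last being a set with the suffix for shared transcripts. Foxo4, the X-linked member, read 66.0 in TAZ-deficient lung, against 56.6 in wild type lung (1.17-fold higher), with its other probe set below the floor. With the median over probe sets the Foxo3 log2 ratio was 0.07, and 1 of its 3 probe sets above the floor was 1.2-fold different. The 3 signs at the brightest probe sets were the same under quantile normalization, loess and median centring.

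Proteins that control FOXO factors and genes that FOXO factors control were listed apart. Of 17 measured regulators none was 1.5-fold different, where 2.75% of all measured genes were, so that a count of 0 is near the background. Their median log2 ratio was 0.01, and Sgk1 and Pik3r1 were 1.2-fold different. The 14-3-3 proteins that hold FOXO in the cytoplasm read 3244.3 in TAZ-deficient and 3549.6 in wild type lung for Ywhaq, and 3240.3 in TAZ-deficient and 3146.8 in wild type lung for Ywhae. Sgk1, a kinase of FOXO factors, read 344.5 in TAZ-deficient and 285.0 in wild type lung (1.21-fold higher). The phosphoinositide 3-kinase subunit Pik3r1 read 198.9 in TAZ-deficient and 240.7 in wild type lung (1.21-fold lower). Its other probe sets above the floor had log2 ratios of -0.42, -0.38 and 0.01. Sgk1, Pik3r1 and Bcl6 were chosen after their values were seen. Of 28 genes listed as FOXO targets, 23 were measured and none was 1.5-fold different, again near that background. The median was 0.03, with 12 ratios above 0 and 11 below, and Bcl6, a transcriptional repressor, was the one 1.2-fold different, with 38.8 in TAZ-deficient and 47.9 in wild type lung. Catalase (Cat) read 805.2 in TAZ-deficient and 701.1 in wild type lung, its log2 ratio of 0.20 turning to -0.06 without probe sets with shared suffixes. Cited2 read 551.6 in TAZ-deficient and 632.7 in wild type lung.

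The Foxo3 window holds the TEAD letters 2 times and is shown with them in capitals. The match on the strand opposite to the gene begins 180 bases before the start, and the match on the same strand as the gene 20 bases after it (GRCm38.p6, chr10:42276646-42276945, minus strand, written 5′ to 3′ along the gene).
Foxo3: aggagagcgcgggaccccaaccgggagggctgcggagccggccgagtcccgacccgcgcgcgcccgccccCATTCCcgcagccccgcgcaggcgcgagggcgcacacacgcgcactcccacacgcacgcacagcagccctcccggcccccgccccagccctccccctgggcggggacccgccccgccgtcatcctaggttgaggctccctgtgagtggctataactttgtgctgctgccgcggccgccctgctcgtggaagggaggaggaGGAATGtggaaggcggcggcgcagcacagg

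Foxm1, the activator of genes for mitosis, read 116.1 in TAZ-deficient lung, against 138.8 in wild type lung (log2 ratio -0.26). Its other probe sets above the floor read 94.1 against 99.9 (1.06-fold lower) and 65.0 against 69.7 (1.07-fold lower) in TAZ-deficient against wild type lung. All 3 ratios were below 0, and the median over them was -0.10. The FOXM1 targets had ratios of both signs. All 23 with a probe set were measured, 12 had ratios above 0 and 11 below, and the median was 0.01. None was 1.5-fold different, where 2.75% of all measured genes were, and 0.327% of those with both signals above 106.3. Cks1b, a cofactor of cyclin-dependent kinases, read 2939.6 in TAZ-deficient and 2837.3 in wild type lung, and the ubiquitin-conjugating enzyme Ube2c read 1812.6 in TAZ-deficient and 1793.7 in wild type lung. The kinetochore gene Cenpf, chosen after its values were seen, had the largest ratio of the list at 426.0 in TAZ-deficient and 304.8 in wild type lung (1.40-fold higher), while its next probe set read 23.6 in TAZ-deficient and 27.0 in wild type lung.

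**Figure D4:**
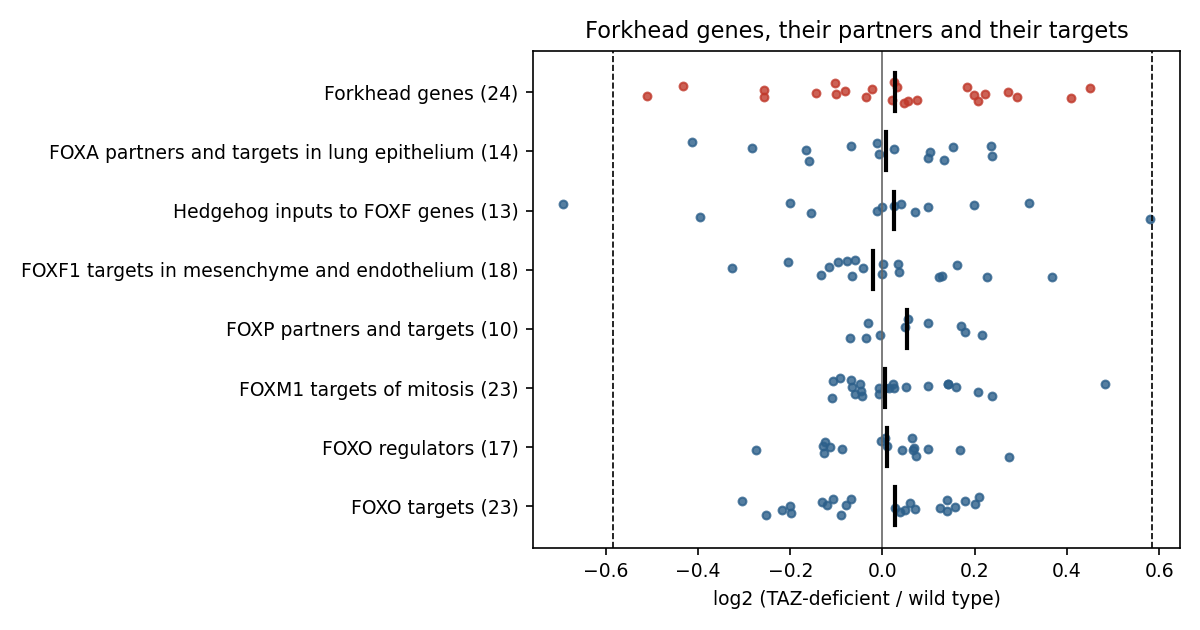
Log2 ratio (TAZ-deficient / wild type) for the measured genes of the forkhead family (red) and of 7 lists of partners, regulators and targets (blue), with the number of measured genes in brackets, the median as a black bar and dashed lines at 1.5-fold. All medians lie between -0.02 and 0.05, and Gli1 in the hedgehog list is the point beyond a dashed line.

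The broadly expressed FOXK, FOXN and FOXJ genes were mostly within 1.1-fold. Foxk1 read 108.7 in TAZ-deficient and 106.4 in wild type lung. Foxk2, which like Foxk1 represses genes of autophagy, read 221.2 in TAZ-deficient and 237.4 in wild type lung, and 3 of its 4 probe sets above the floor had ratios below 0. Foxn2 read 271.9 in TAZ-deficient and 278.6 in wild type lung. For Foxn3, a transcriptional repressor, the brightest probe set read 211.4 in TAZ-deficient and 214.9 in wild type lung, but the other 3 above the floor had ratios above 0, the highest of which was 0.22. Its log2 ratio of -0.02 was positive under loess, and 0.13 with the median over probe sets. Foxj3 read 289.5 in TAZ-deficient and 280.4 in wild type lung. Foxj2 differed more, with 109.1 in TAZ-deficient lung, against 130.3 in wild type lung (1.19-fold lower), and its dim second probe set read 8.0 in TAZ-deficient and 17.6 in wild type lung (at least 1.16-fold lower).

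The widest ratios of the family, those of Foxs1, Foxn4 and Foxa3, belonged to genes close to the floor with 1 probe set above it, and Foxl2 and Foxd2 were dim as well. Foxs1, which in the mouse marks cells around vessels, read 16.5 in TAZ-deficient lung, against 23.5 in wild type lung (1.42-fold lower). Foxn4, a factor of retinal and spinal cord neurons, read 25 in TAZ-deficient lung, against 18.3 in wild type lung (1.37-fold higher). Foxl2, the factor that maintains the ovary, read 36.7 in TAZ-deficient lung, against 30.0 in wild type lung (1.22-fold higher), while its second probe set did not reach the floor on either array. Foxd2 read 17.5 in TAZ-deficient and 17.2 in wild type lung. Adding 16 signal units to both arrays in place of the floor brought the log2 ratio of Foxs1 to -0.28 and that of Foxn4 to 0.26. Beside Foxs1, all 5 smooth muscle markers had ratios below 0, from -0.59 to -0.03, where 46.8% of all measured genes had ratios above 0. These markers had a summed signal of 3605.0 in TAZ-deficient and 3890.2 in wild type lung, with none at 0. Their part in the Foxs1 ratio was not tested.

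The 12 genes that were not measured are mostly known from other organs. They were Foxb1 and Foxd4 of the nervous system, Foxb2, Foxc1, Foxd1 of kidney stroma, Foxd3 of the neural crest, Foxe3 of the lens, Foxh1 of nodal signalling, Foxi1 of ionocytes, Foxl1, Foxn1 of thymic epithelium and Foxp3. Their probe sets read 0.4 to 15.2 in TAZ-deficient and 0.3 to 13.3 in wild type lung, and no direction is given for them. Foxn1 stayed below the floor together with 4 of the 5 other thymus and T cell markers with a probe set. Signals this low say that a transcript was not detectable above the floor in whole lung, not that it was absent from a rare cell type.

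**Figure D5:**
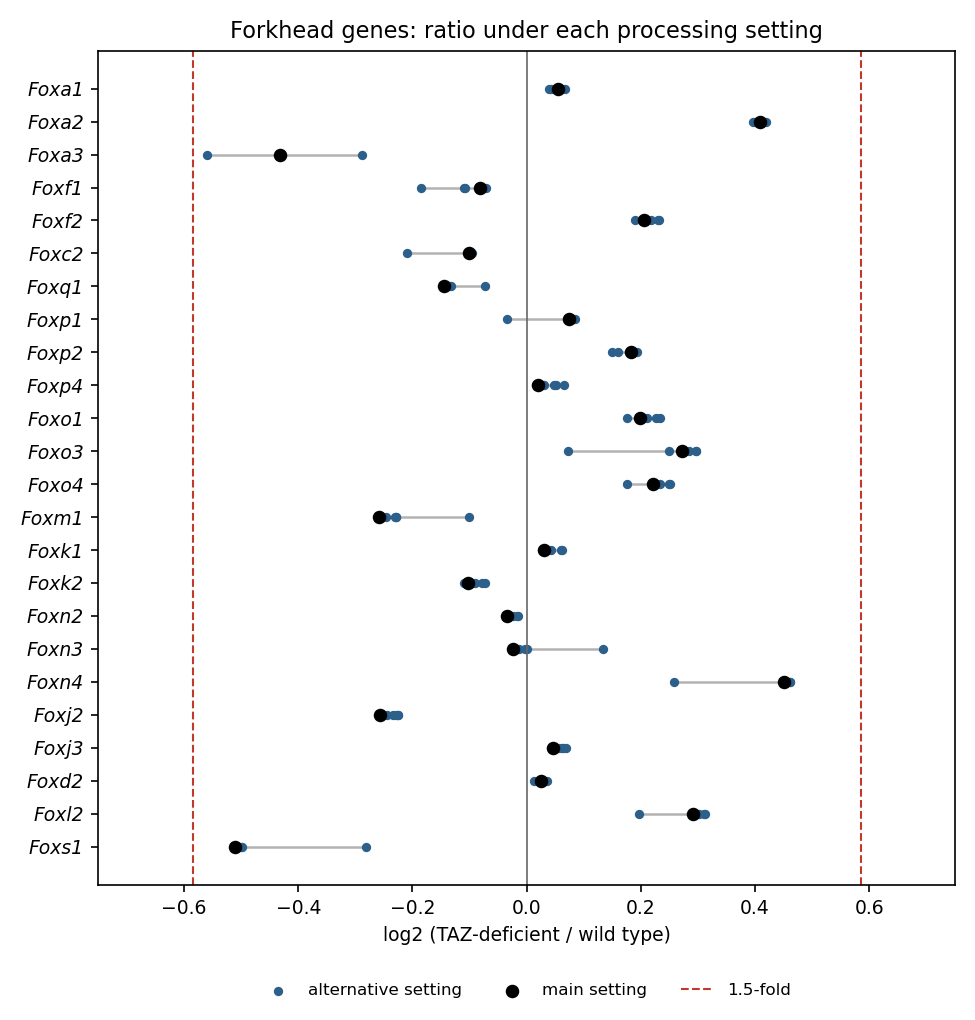
Log2 ratio (TAZ-deficient / wild type) for the 24 measured forkhead genes in the main setting (black) and under up to 8 alternative settings (blue), joined by a grey line, with dashed lines at 1.5-fold. Foxa2 stays between 0.40 and 0.42, whereas Foxs1, Foxn4, Foxa3 and Foxo3 move by more, and points of Foxn3 and Foxp1 lie on both sides of 0. Foxa2 has 1 probe set, with both signals above every floor. The other floors, the median over probe sets and the removal of sets with suffixes could therefore not change its ratio.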

How the data were processed

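The deposited table holds linear intensity values, 1 per probe set and array, never negative and with 1 decimal. The submitters' processing notes name GCOS and MAS5 without a version. The authors' intensity values had been scaled per array, since the mean without the lowest and highest 2% was 100.001 on both arrays. No detection call, genome build of the probes or replicate array was used.

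Probe sets were named through the platform annotation, and symbols were updated by Entrez identifier to GRCm38.p6 RefSeq names. Of 45101 probe sets, 34945 named 1 gene, 932 named several and 9160 were not listed. The table holds 64 control probe sets, which were left out. The brightest probe set stood for a gene. The floor (15.2), the 1.5-fold rule and the signal-based error are described with the results. The members, lists and rules were chosen with earlier results of these data known, and the 1.2-fold threshold after the data were seen. Every measured forkhead gene was named, and from each list up to 4 genes at least 1.5-fold different or otherwise the 2 with the highest signal. Other list genes, named as such, were chosen after their values were seen. Alternatives were other floors (4.3 and 106.3, the 25th and 75th percentiles), a pseudocount of 16, quantile normalization, loess (span 0.3), median centring, the median over probe sets, and no probe sets with the suffixes for shared or cross-hybridising sets. The code was tested on simulated data with known changes. Python 3.11.15, numpy 2.4.6, pandas 2.3.3 and statsmodels 0.14.6 were used. Promoter windows and gene order are from RefSeq (GRCm38.p6).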

Additional observations from a re-analysis of the deposited data

How the results depend on the processing

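With 1 array per group, precision is limited by the number of arrays. No forkhead gene was 1.5-fold different under 7 of 8 alternative settings. The exception was the floor at the 25th percentile, 4.3 signal units, where 5 of 34 measured forkhead genes were (1 higher and 4 lower), against 12.4% of all genes measured there. These 5 were Foxi1, higher, and Foxb1, Foxd4, Foxh1 and Foxn1, lower, all of them below the main floor on both arrays. At 1.2-fold the count was 6. The median log2 ratio of the forkhead genes lay between -0.002 and 0.043 under the 8 alternatives, and the number with a ratio above 0 between 10 of 16 and 17 of 34. Of 290 values of single genes under the alternatives, 280 moved by less than the disagreement between probe sets and 10 by more. Wwtr1 and Gli1, both at least 1.5-fold different, kept their sign wherever a value was given. However, Gli1 was under 1.5-fold with the pseudocount (log2 ratio -0.53), and the Wwtr1 log2 ratio ran from -6.13 to -2.90. The -6.13 was at the floor of 4.3, which both Wwtr1 signals exceeded, and the -2.90, a bound, was at the floor of 106.3. The heart genes Myl7, Myh7 and Tnnt2 were not followed under the alternatives. No paired analysis was possible because each group is 1 array.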
